A study of Mus musculus with 18 samples.

Results

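The 49 genes described here act in G2 and mitosis, the phases in which a cell with copied chromosomes prepares to divide and then divides. They were taken by name from a list, and no threshold on a measured value chose them, though the list was drawn up with earlier results of these data known. All 49 were among the 24116 genes measured, and all 49 passed the filter that left 11111 genes for testing. Most of them had less messenger RNA at day 5 of organoid growth than at days 0 and 1. At day 5, 36 of 49 passed the test as lower than at day 0 and 38 of 49 as lower than at day 1. The number that passed as higher was 0. Of all genes tested, 13% and 16.1% were lower in these comparisons, and 11.4% and 11.8% higher. Leaving out 1 library lowered the counts to as few as 7 and 8. The median change of the 49 genes was -1.05 and -1.04 on the log2 scale, against -0.17 and -0.15 over all genes tested. None of the steps from 1 day to the next gave a call, and at day 4 the summed level of the 49 genes ran from 476.4 to 1528 RPKM over the 3 libraries.

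A dividing cell enters mitosis when a cyclin-dependent kinase is bound by its cyclin and freed of inhibitory phosphates by Cdc25 phosphatases. Condensin and topoisomerase then shape the chromosomes, kinetochores attach them to the spindle that kinesin motors organise, a checkpoint holds anaphase until all are attached, and the anaphase-promoting complex then marks securin and cyclins for destruction. In the intestinal epithelium, division is known to be a property of the stem and progenitor cells of the crypt, while enterocytes and most other differentiated cells have left the cell cycle.

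Organoids are epithelial structures grown in a gel from intestinal stem and progenitor cells. Here they came from C57BL/6 wild-type mice of 8 weeks of age, with 3 organoid lines named by the series, and were collected at days 0, 1, 2, 3, 4 and 5, with 3 libraries at each of the 6 days, 18 in all. No group carried a mutation, and there was no untreated time course beside this one. EGF, Noggin and R-spondin were in the medium throughout. From day 0 to day 3 it also held 20% Wnt3a-conditioned medium and 10 µM Y-27632, a kinase inhibitor, and from day 0 to day 1 it held 3 µM CHIR99021, which inhibits GSK3 and so activates Wnt signalling. Day and medium changed together, so their parts in a difference cannot be told apart. Each library pooled 30 wells of a culture plate. Sample titles assign mouse 1 to replicate 1 and mouse 3 to replicate 3 throughout, and mouse 2 to replicate 2 at 4 of the 6 days. At days 1 and 2, replicate 2 is titled mouse 1. Replicate 1 was made without DNase at every day, and replicates 2 and 3 with it. By the titles, mouse 1 has libraries of both kinds at days 1 and 2, and at the other days its treatment and the mouse cannot be told apart.

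Levels are given as RPKM, a read count divided by gene length and library size, and can be compared between genes of different length. The libraries held 43010000 to 53930000 reads as far as the low values show. Every value of the 49 genes stood for about 357 reads or more. Counting error was not compared with the spread between libraries. The labelled tissue was checked on markers. The epithelial genes Epcam (349.9 to 505 RPKM over the 18 libraries) and Cdh1 (116.7 to 239 RPKM) were high at every day. The summed level of 8 mesenchymal markers was at most 2.18 RPKM, with Dcn and Lum at 0 in all libraries, that of 8 immune markers 0.587 to 3.89 RPKM, with Nkg7 among those at 0, and that of 5 endothelial markers at most 0.38 RPKM.

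Over the 18 libraries the mean level of the genes ran from 4.76 RPKM for Cenpf, a protein of the outer kinetochore, to 117.8 RPKM for Ube2c, the enzyme that supplies ubiquitin to the anaphase-promoting complex, with a median of 19.9 RPKM. The mean of the 3 libraries peaked at day 0 in 23 genes, at day 1 in 18 and at day 2 in 8, where 33.6%, 24.1% and 12.6% of all genes tested had their highest mean. It was lowest at day 5 for 48 genes, against 38.8% of all genes tested. Pttg1, the exception, was lowest at day 4. The summed level of the 49 genes lay between 1043 and 1833 RPKM in the 12 libraries of days 0 to 3, and at 659.4, 703.0 and 740.0 RPKM in the 3 libraries of day 5. For 41 genes all 3 values of day 5 lay below all 12 values of days 0 to 3, which held for 9.32% of all genes tested. Day 1 replicate 1 was the highest of the 18 libraries for 23 genes, against 8.71%.

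**Figure D1:**
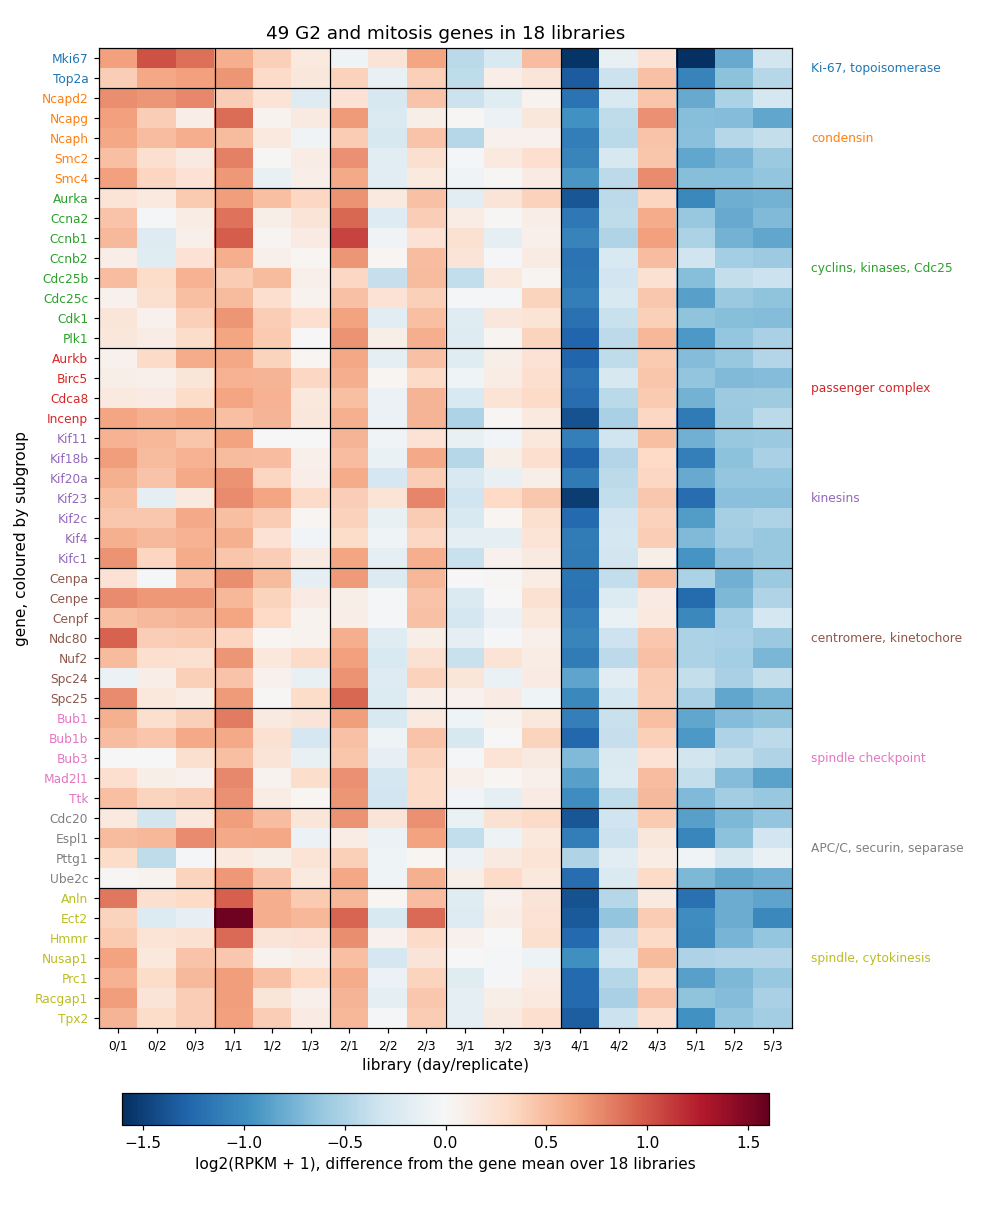
Difference of log2(RPKM + 1) from each gene's mean over the 18 libraries, for the 49 genes (rows, coloured by subgroup) in each library (columns, day and replicate). The day 5 columns are below the mean for nearly every gene, and the 3 columns of day 4 step from the lowest values (replicate 1) to values like those of days 0 to 3 (replicate 3).

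Changes were tested with limma on log2(RPKM + 1), with 1 model over all 18 libraries and p-values adjusted over all 11111 genes, and an adjusted p under 0.05 counts as a call. From day 0 to day 5, 36 of the 49 genes fell and 0 rose, where 13% of all genes tested fell and 11.4% rose. At an unadjusted p under 0.05, 46 genes were lower and 0 higher, against 24.7% and 16% of all genes. The median change of the 49 was -1.05 and that of all genes tested -0.17. The mean at day 0 was 1.10 to 3.34 times that at day 5, with a median of 2.20, and for 32 genes it was at least 2 times as high, against 9.15% of all genes. In 48 of the 49 all 3 values of day 5 lay below all 3 of day 0, against 34.9% of all genes, and in 0 all lay above, against 19.2%. The count depended on single libraries. It was 7 without day 5 replicate 1 and 21 without day 5 replicate 2. Leaving out day 0 replicate 1, 2 or 3 gave 19, 22 or 18. Without day 4, left out after its spread was seen, it was 46. The fitted change of all 49 genes was below 0 in all 29 alternative analyses, apart from that of Pttg1, which was below 0 in 24. For single genes of the 49, only left-out libraries that lost a call are named below. Other settings that lost one are named in the closing section.

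From day 1 to day 5, 38 genes fell and 0 rose, where 16.1% of all genes tested fell and 11.8% rose. Both comparisons use the same 3 libraries of day 5, so they are not independent. By the titles, replicates 1 and 2 of day 1 are both of mouse 1, and the fit counts them as separate libraries. The median change was -1.04, against -0.15 over all genes. The mean at day 1 was 1.27 to 4.03 times that at day 5. All 3 values of day 5 lay below all 3 of day 1 in 49 of 49 genes, against 33.8% of all genes, and above in 0, against 19%. At an unadjusted p under 0.05, 47 genes were lower and 0 higher, against 26.4% and 16.5%, and 35 had a mean at least 2 times as high at day 1, against 9.9%. This count too depended on single libraries, with 8 calls without day 1 replicate 1 and 20 without day 1 replicate 2. Leaving out day 5 replicate 1, 2 or 3 gave 11, 20 or 23. Without day 4 it was 47. In the DNase-treated libraries alone, replicates 2 and 3, it was 15. Rescaling the libraries by median ratios shifted the median of all genes by more than 0.1, from -0.17 to -0.008 for day 5 against day 0 and from -0.15 to -0.03 against day 1, and the 49 genes then had medians of -0.87 and -0.90 with 36 and 38 calls. In these bulk samples, fewer cells of a type and less RNA per cell cannot be told apart.

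The steps from 1 day to the next gave no call with limma. From day 0 to day 1, 0 of 49 genes passed in either direction, while 9.54% of all genes tested rose and 9.05% fell. At an unadjusted p under 0.05, 1 gene (Ect2) was higher and 0 lower, against 16.3% and 16.1% of all genes. The median change of the 49 was -0.004. In the steps from day 1 to 2 and from day 2 to 3, 0% of all genes were called in either direction. From day 3 to 4, 0.036% of all genes rose and 0% fell, and from day 4 to 5, 0.189% rose and 0% fell. In each of these 4 steps 0 of the 49 genes were called, and 0 passed at an unadjusted p under 0.05. Of all genes, 1.84% and 0.531% were then higher and lower at day 2, 0.279% and 0.153% at day 3, 1.89% and 2.98% at day 4, and 3.28% and 0.81% at day 5. The median changes of the 49 genes in these steps were -0.06, -0.25, -0.40 and -0.29. The test over all 6 days together, which asks whether any day differs, called 23 of 49, against 25.3% of all genes. This count was 47 without day 4 replicate 3 and 46 without day 4. It was between 4 and 14 when 1 of 11 other libraries was left out, namely any of day 0 or day 5, day 1 replicate 1 or 2, day 2 replicate 1 or 3, or day 4 replicate 2.

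**Figure D2:**
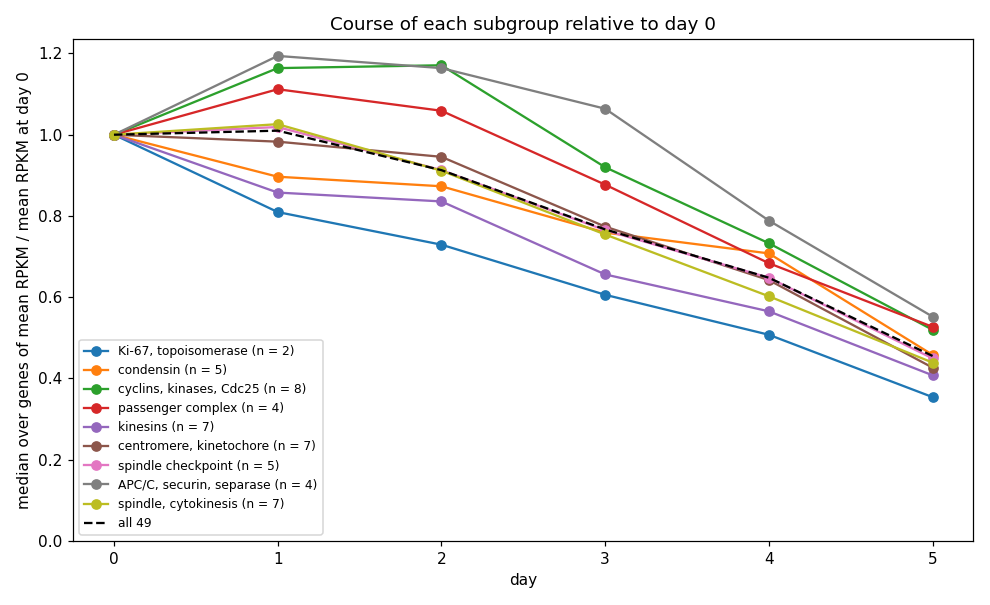
Mean RPKM at each day divided by that at day 0, as the median over the genes of each subgroup (solid lines) and over all 49 genes (dashed). The median over all 49 genes was 1.01 at day 1 and 0.455 at day 5, and Ki-67 with topoisomerase was the lowest line at day 1.

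The RefSeq start sites show what these genes share that the list did not use. Of the 49 genes, 41 matched the table of promoters of build GRCm38.p6, which holds 250 bases before and 50 after each start. Searched on both strands, the letters TTTGAA, the core of the cell cycle homology region that the DREAM and B-MYB-MuvB complexes are known to bind, occurred in the windows of 31 of the 41 genes (75.6%), against 14.2% of the 8822 genes tested that are in the table. CCAAT, the box bound by NF-Y, occurred in 32 of 41 (78.05%), against 43.2%. Both occurred in 28 (68.3%), against 5.88%, and neither in 6. In 8 genes both lay within the 100 bases before a start, and those bases are printed here to show the arrangement, 5′ to 3′ on the strand of the gene, with every match to either motif, on either strand, in capitals.
Cdk1, chr10:69352913-69353012, minus strand: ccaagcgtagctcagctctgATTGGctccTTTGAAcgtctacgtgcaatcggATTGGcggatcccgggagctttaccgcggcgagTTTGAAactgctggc
Top2a, chr11:99024190-99024289, minus strand: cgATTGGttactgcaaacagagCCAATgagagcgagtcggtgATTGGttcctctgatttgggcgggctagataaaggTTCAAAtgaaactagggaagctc
Kif11, chr19:37376282-37376381, plus strand: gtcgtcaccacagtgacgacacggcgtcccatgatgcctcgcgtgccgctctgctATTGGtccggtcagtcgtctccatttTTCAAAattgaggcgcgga
Bub3, chr7:131560270-131560369, plus strand: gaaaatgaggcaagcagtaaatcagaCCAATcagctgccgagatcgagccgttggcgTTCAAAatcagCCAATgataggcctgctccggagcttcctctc
Prc1, chr7:80294376-80294475, plus strand: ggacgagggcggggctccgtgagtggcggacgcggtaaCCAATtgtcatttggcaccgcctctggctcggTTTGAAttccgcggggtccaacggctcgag
Espl1, chr15:102296193-102296292, plus strand: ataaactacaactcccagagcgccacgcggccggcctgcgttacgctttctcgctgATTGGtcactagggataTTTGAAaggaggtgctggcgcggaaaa
Cdc20, chr4:118437344-118437443, minus strand: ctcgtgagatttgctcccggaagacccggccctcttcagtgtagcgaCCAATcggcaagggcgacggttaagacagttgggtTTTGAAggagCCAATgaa
Ube2c, chr2:164769829-164769928, plus strand: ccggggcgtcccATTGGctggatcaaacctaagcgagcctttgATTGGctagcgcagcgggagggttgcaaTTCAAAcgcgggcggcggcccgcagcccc
In Cdk1 each of the 2 printed CCAAT boxes is followed by a TTTGAA match, and in Bub3 and Cdc20 a CCAAT follows the TTTGAA match toward the start. The median change from day 0 to day 5 was -1.12 in the 31 genes with TTTGAA in the window and -0.91 in the 10 without, and from day 1 to day 5 it was -1.04 and -1.0, nearly equal. For the CCAAT box, in 32 genes with a match and 9 without, the medians were -1.07 and -0.93 from day 0 and -1.07 and -0.95 from day 1. These are matches of letters and not measured binding, and these differences were not tested.

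Among the 8 cyclins, kinases and Cdc25 phosphatases, which drive entry into mitosis, 4 fell from day 0 to day 5 (Cdk1, Aurka, Cdc25b and Cdc25c) and 6 from day 1 to day 5 (Ccna2, Ccnb1, Cdk1, Plk1, Aurka and Cdc25c), with median changes of -0.89 and -1.06. Cdk1 (chr10:69335146-69352912), the kinase whose activity starts mitosis, was at 48.1, 44.3 and 55.3 RPKM at day 0, 68.9, 55.6 and 50.98 at day 1, 66.05, 37.4 and 59.3 at day 2, 36.7, 47.95 and 49.2 at day 3, 17.9, 32.5 and 55.1 at day 4 and 26.5, 25.8 and 25.6 at day 5. Its 3 values of day 5 were the closest to each other of any day and lay below all values of days 0 to 3, while those of day 4 reached from below day 5 to the level of day 0. The change was -0.89 ± 0.30 (SE, limma adjusted p = 0.041) from day 0 and -1.13 ± 0.30 (SE, limma adjusted p = 0.0143) from day 1. The first call was lost without any of the 3 libraries of day 0 or of day 5, day 1 replicate 2, day 3 replicate 3 or day 4 replicate 2, and the second without day 1 replicate 1. Aurka (chr2:172356190-172370886), the kinase of the spindle poles, was at 41.6, 39.8 and 47.8 RPKM at day 0, 57.4, 50.01 and 45.1 at day 1, 59.5, 39.8 and 49.8 at day 2, 31.5, 41.3 and 46.2 at day 3, 13.2, 26.5 and 45.5 at day 4 and 16.96, 20.3 and 20.7 at day 5. All values of days 0 to 3 were at 31.5 or above, and all of day 5 at 20.7 or below. It fell from day 1 by 1.35 ± 0.30 on the log2 scale (SE, limma adjusted p = 0.00723), a call kept in all 29 alternatives, and from day 0 by 1.12 ± 0.30 on the log2 scale (SE, limma adjusted p = 0.0179), a call lost without day 0 replicate 3 or day 5 replicate 1.

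Cyclin A, encoded by Ccna2 (chr3:36564865-36573038), acts with the kinases in S phase and G2. Its level was 81.1, 58.3 and 64.1 RPKM at day 0, 109, 63.3 and 68.6 at day 1, 113, 50.9 and 77.8 at day 2, 64.1, 60.02 and 63.8 at day 3, 26.2, 44.5 and 89.5 at day 4 and 38.4, 33.4 and 35.7 at day 5. Replicate 1 was well above the others at days 1 and 2, and no value of day 5 overlapped with days 0 to 3. From day 1 the change was -1.10 ± 0.35 (SE, limma adjusted p = 0.0318), a call lost without day 1 replicate 1 or any day 5 library, and from day 0 it was -0.89 ± 0.35 (SE, limma adjusted p = 0.0729). Ccnb1 (chr13:100778739-100786486), the cyclin B partner of Cdk1, was at 11.2, 6.36 and 7.99 RPKM at day 0, 15.7, 7.81 and 8.296 at day 1, 16.98, 7.204 and 9.04 at day 2, 9.12, 6.702 and 8.05 at day 3, 3.06, 5.12 and 12.4 at day 4 and 5.003, 4.04 and 3.803 at day 5. In replicate 1 it was the highest at days 0 to 3 and the lowest at day 4. Its change from day 1 was -1.08 ± 0.38 (SE, limma adjusted p = 0.0469), and from day 0 -0.82 ± 0.38 (SE, limma adjusted p = 0.118). The call from day 1 was kept in 12 of 29 alternatives, and was lost without any library of day 1 or day 5, day 0 replicate 2 or 3, day 2 replicate 3, day 3 replicate 2 or 3, or day 4 replicate 2. Several pseudogenes share up to 99.2% of their aligned bases with the Ccnb1 transcript, so reads could have been split between them, and Ccnb1 values are uncertain. Ccnb2, the other B-type cyclin, went from 44.7 ± 6.54 to 30.5 ± 3.28 RPKM (SD, n = 3) between day 0 and day 5 and was not called (limma adjusted p = 0.197). Bases that overlap exons of the neighbouring gene Exosc9, on either strand, make up 12.5% of the exon bases of Ccna2, and the use of strand is not stated.

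Mki67 and Top2a belong to chromosomes as they condense, and both fell in both comparisons. Mki67 (chr7:135689784-135716450) encodes Ki-67, the coat protein of mitotic chromosomes that is widely used as a mark of cycling cells. It was at 50.6, 65.4 and 59.4 RPKM at day 0, 47.95, 41.5 and 35.6 at day 1, 30.1, 36.9 and 49.7 at day 2, 23.3, 26.8 and 45.2 at day 3, 10.02, 29.2 and 37.4 at day 4 and 9.08, 17.8 and 25.7 at day 5. Each value of day 0 exceeded every later value, and the means went down at every day, from 58.5 ± 7.40 RPKM (SD, n = 3) at day 0 to 17.5 ± 8.32 at day 5. The fold of 3.34 between these means was the highest of the 49 genes. The change was -1.79 ± 0.41 (SE, limma adjusted p = 0.00952) from day 0, which became 0.0553 without day 5 replicate 1, the lowest of all values, and -1.31 ± 0.41 (SE, limma adjusted p = 0.0307) from day 1, lost without replicate 1 or 2 of day 1 or of day 5. Top2a (chr11:98992947-99024199), the topoisomerase that untangles sister chromatids, was at 76.6, 89.4 and 91.8 RPKM at day 0, 95.6, 72.1 and 65.7 at day 1, 74.96, 53.5 and 76.03 at day 2, 43.4, 62.3 and 66.7 at day 3, 22.5, 45.6 and 80.9 at day 4 and 27.02, 36.4 and 41.8 at day 5. Values of day 5 lay below all of days 0 to 3, and the change from day 0 was -1.29 ± 0.33 (SE, limma adjusted p = 0.0153), lost without day 5 replicate 1, and from day 1 -1.13 ± 0.33 (SE, limma adjusted p = 0.0237), lost without replicate 1 or 2 of day 1 or of day 5.

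Condensin, the ring complex that compacts chromosomes, has 5 genes in the list. All 5 fell from day 0 to day 5, with changes of -1.02 to -1.27, and 2 (Smc2 and Ncapg) fell from day 1. Ncapd2 (chr6:125168007-125192100), a regulatory subunit of condensin I, was at 53.3, 52.1 and 54.5 RPKM at day 0, 41.8, 36.9 and 27.1 at day 1, 37.1, 26.3 and 43.6 at day 2, 24.6, 27.5 and 32.9 at day 3, 13.4, 26.4 and 43.1 at day 4 and 17.5, 21.98 and 25.8 at day 5. Its day 0 values were close to each other and above all later ones, and the mean at day 1 was 0.662 times that at day 0, the lowest ratio of the 49 genes. That step was not called (log2 change of -0.60 ± 0.31 (SE), limma adjusted p = 0.19). From day 0 to day 5 the change was -1.27 ± 0.31 (SE, limma adjusted p = 0.0116), lost without day 5 replicate 1, and from day 1 it was -0.67 ± 0.31 (SE, limma adjusted p = 0.11). Smc4 (chr3:69004738-69034623), an ATPase core subunit, was at 55.1, 43.9 and 40.6 RPKM at day 0, 56.4, 31.6 and 37.2 at day 1, 52.9, 30.4 and 38.6 at day 2, 33.05, 34.95 and 37.96 at day 3, 17.5, 25.5 and 58.9 at day 4 and 21.2, 21.1 and 21.9 at day 5. Its day 5 values were close to each other and below all values of days 0 to 3, and day 4 replicate 3 had the highest value of all 18 libraries. From day 0 it changed by -1.07 ± 0.33 (SE, limma adjusted p = 0.0287), lost without any library of day 0 or day 5, and from day 1 by -0.89 ± 0.33 (SE, limma adjusted p = 0.0541).

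**Figure D3:**
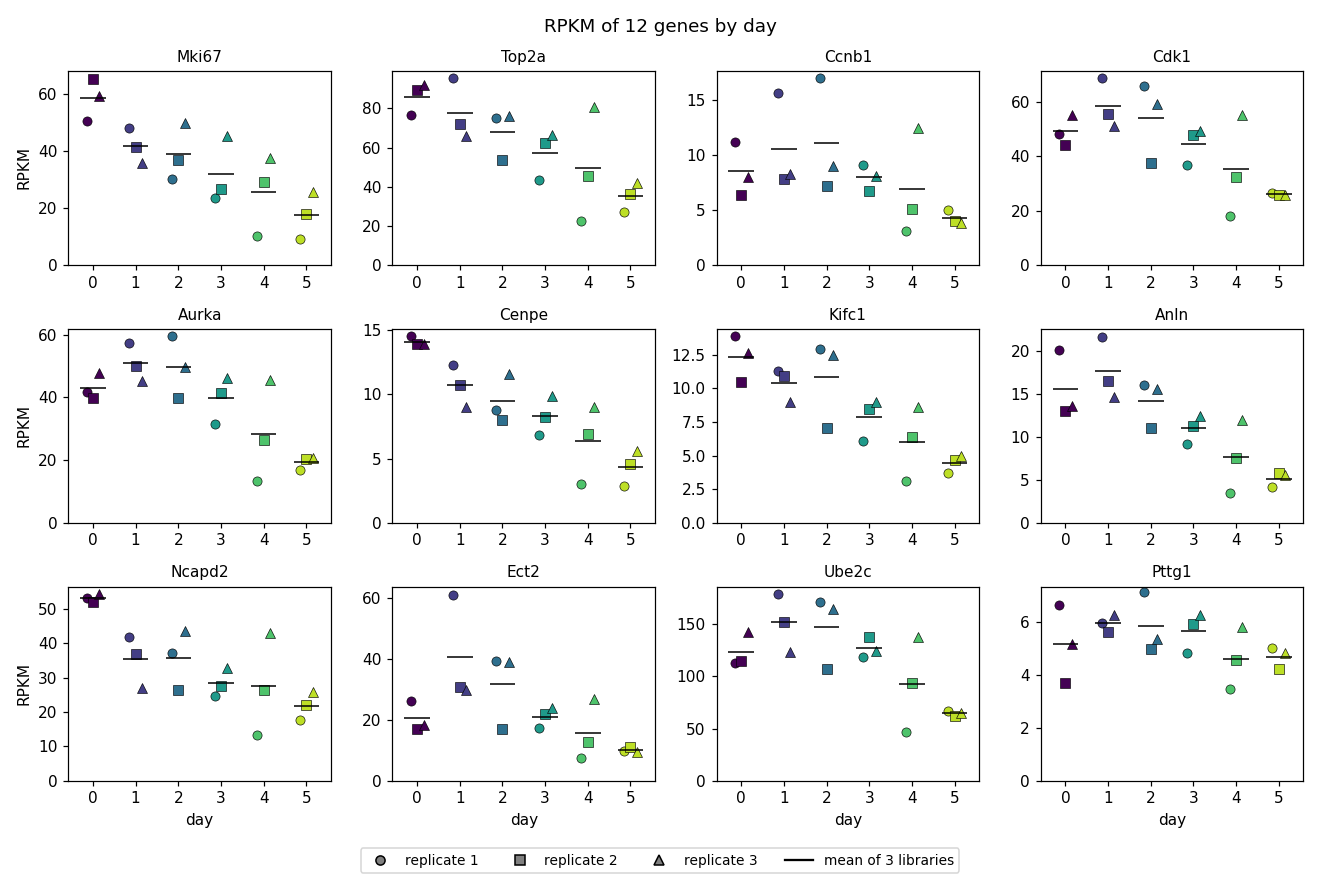
RPKM of 12 genes in each library by day, with a symbol for each replicate and a line at the mean of the 3 libraries. Mki67 and Ncapd2 were highest at day 0, Ect2 was highest at day 1, Pttg1 stayed between 3.47 and 7.16 RPKM, and at day 4 replicate 1 was the lowest and replicate 3 the highest in all 12 panels.

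Centromere and kinetochore proteins mark the place where chromosomes attach to the spindle and hold the microtubules there. Of the 7 genes, 5 fell from day 0 (Cenpe, Cenpf, Nuf2, Ndc80 and Spc25) and 5 from day 1 (Cenpa, Cenpe, Cenpf, Nuf2 and Spc25). Spc24, a part of the Ndc80 complex, passed in neither (changes of -0.56 and -0.57). Cenpe (chr3:135212563-135273540), the kinesin that moves chromosomes to the spindle equator, was at 14.5, 13.9 and 13.9 RPKM at day 0, 12.3, 10.7 and 9.04 at day 1, 8.79, 8.02 and 11.6 at day 2, 6.84, 8.199 and 9.87 at day 3, 3.05, 6.91 and 9.05 at day 4 and 2.9, 4.57 and 5.57 at day 5. Its 3 values of day 0 stood above every later value, and its means went down at each day. It changed by -1.53 ± 0.27 (SE, limma adjusted p = 0.00218) from day 0 and by -1.15 ± 0.27 (SE, limma adjusted p = 0.00923) from day 1. Both calls were kept in all 29 alternatives, in which the adjusted p of the first reached 0.0164 at most. Cenpa (chr5:30666877-30674837), the histone variant that defines the centromere, was at 47.3, 39.4 and 56.6 RPKM at day 0, 68.1, 57.4 and 36.3 at day 1, 65, 34.4 and 58.2 at day 2, 40.2, 40.6 and 43.5 at day 3, 17.2, 30.4 and 56.3 at day 4 and 28.1, 23.2 and 26.2 at day 5. No value of day 5 was as high as the lowest of days 0 to 3, and the change was -0.99 ± 0.34 (SE, limma adjusted p = 0.0405) from day 1, lost without day 1 replicate 1 or 2, day 3 replicate 3, day 4 replicate 2 or any of day 5, and -0.85 ± 0.34 (SE, limma adjusted p = 0.0737) from day 0.

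The spindle checkpoint, which delays anaphase while a kinetochore is unattached, has 5 genes in the list. From day 0, 3 fell (Bub1, Bub1b and Ttk), and from day 1, 3 fell (Bub1, Mad2l1 and Ttk). Bub1 (chr2:127800197-127831859), the kinase that recruits other checkpoint proteins, was at 12.2, 9.68 and 10.7 RPKM at day 0, 14.9, 8.93 and 9.32 at day 1, 13.2, 6.57 and 9.01 at day 2, 7.56, 8.29 and 9.08 at day 3, 3.197, 5.98 and 11.6 at day 4 and 4.05, 4.54 and 4.71 at day 5. The day 5 values lay in a narrow range below all of days 0 to 3. It changed by -1.12 ± 0.31 (SE, limma adjusted p = 0.02) from day 0 and by -1.12 ± 0.31 (SE, limma adjusted p = 0.0184) from day 1. The first call was lost without day 0 replicate 1 or 3 or day 5 replicate 1, and the second without day 1 replicate 1 or day 5 replicate 1. Bub3 (chr7:131560367-131571895), which carries Bub1 to kinetochores and was the most abundant of the 5, was at 43.2, 42.97 and 51.5 RPKM at day 0, 60.05, 49.7 and 39.4 at day 1, 58.8, 39.02 and 55.5 at day 2, 42.01, 50.2 and 47.3 at day 3, 25.8, 36.2 and 50.3 at day 4 and 34.8, 32.7 and 30.4 at day 5. Its day 5 values lay below all values of days 0 to 3, by small distances. It was called in neither comparison, with -0.48 ± 0.22 (SE, limma adjusted p = 0.112) from day 0 and -0.58 ± 0.22 (SE, limma adjusted p = 0.0585) from day 1. Mad2l1 shares 95.4% of 454 aligned bases, out of a transcript of 7557, with the gene model Gm42430, so reads from that part are uncertain.

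The chromosomal passenger complex corrects wrong attachments and later directs cytokinesis. Of its 4 genes, 3 fell from day 0 (Aurkb, Birc5 and Incenp) and all 4 from day 1, and Cdca8, borealin, was at an adjusted p of 0.0553 from day 0. Incenp (chr19:9872295-9899489), the scaffold of the complex, was at 46.3, 44.2 and 45.9 RPKM at day 0, 41.4, 43.4 and 33.5 at day 1, 44.1, 27.6 and 43.4 at day 2, 20.6, 29.97 and 32.9 at day 3, 10.6, 20.3 and 37.5 at day 4 and 12.96, 19.2 and 21.5 at day 5. Day 0 values were close to each other, and day 5 values were all below those of days 0 to 2, with day 5 replicate 3 above day 3 replicate 1. The change was -1.33 ± 0.33 (SE, limma adjusted p = 0.0128) from day 0, lost without day 5 replicate 1, and -1.12 ± 0.33 (SE, limma adjusted p = 0.024) from day 1, lost without day 1 replicate 1 or 2 or day 5 replicate 1. Aurkb (chr11:69045624-69051664), the kinase of the complex, was at 32.2, 38 and 46.6 RPKM at day 0, 47.4, 39.4 and 31.3 at day 1, 47.5, 27.6 and 42.8 at day 2, 26.5, 32.6 and 36 at day 3, 12.1, 22.8 and 41.3 at day 4 and 18.6, 19.7 and 21.8 at day 5. The day 5 values were below all of days 0 to 3. Its call from day 0 was close to the threshold (-0.91 ± 0.32 (SE, limma adjusted p = 0.0499)) and was kept in 10 of 29 alternatives. It was lost without any library of days 0, 1, 3 or 5, day 2 replicate 1 or 3, or day 4 replicate 2. From day 1 it changed by -0.92 ± 0.32 (SE, limma adjusted p = 0.044), a call kept in 16 of 29 and lost without any library of day 5, replicate 2 or 3 of day 0 or of day 3, replicate 1 or 2 of day 1, day 2 replicate 3 or day 4 replicate 2.

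Kinesins are motors that build and move the spindle. All 7 were lower by similar amounts (-1.02 to -1.33 from day 0), with 6 called from day 0 and 7 from day 1. Kif23, a kinesin of the central spindle, was at an adjusted p of 0.0548 from day 0. Kifc1 (chr17:33875664-33890633), the motor that bundles microtubules at their minus ends, was at 13.9, 10.4 and 12.6 RPKM at day 0, 11.3, 10.9 and 8.98 at day 1, 12.9, 7.08 and 12.4 at day 2, 6.05, 8.47 and 8.98 at day 3, 3.12, 6.37 and 8.65 at day 4 and 3.68, 4.68 and 4.94 at day 5. Values of day 5 were all at or under 4.94, and of days 0 to 3 all at or over 6.05. The change was -1.29 ± 0.27 (SE, limma adjusted p = 0.00575) from day 0 and -1.07 ± 0.27 (SE, limma adjusted p = 0.0124) from day 1, both kept in all 29 alternatives. Its transcript shares 96.8% of 2312 aligned bases with that of Kifc5b, so its values are uncertain in level. Kif11 (chr19:37376382-37421863), the motor that pushes the spindle poles apart, was at 34.8, 34.3 and 32.1 RPKM at day 0, 37.02, 23.6 and 23.5 at day 1, 34.6, 22.4 and 27.6 at day 2, 21.4, 22.6 and 26.5 at day 3, 10.4, 18.6 and 33.1 at day 4 and 13.4, 15.1 and 15.2 at day 5. Replicate 1 was the highest at days 1 and 2 and the lowest at days 3 to 5. It changed by -1.16 ± 0.29 (SE, limma adjusted p = 0.013) from day 0, lost without day 5 replicate 1, and by -0.87 ± 0.29 (SE, limma adjusted p = 0.0381) from day 1, lost without day 1 replicate 1 or 2 or any library of day 5. For Kif20a, 29.3% of exon bases overlap the gene Cdc23.

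**Figure D4:**
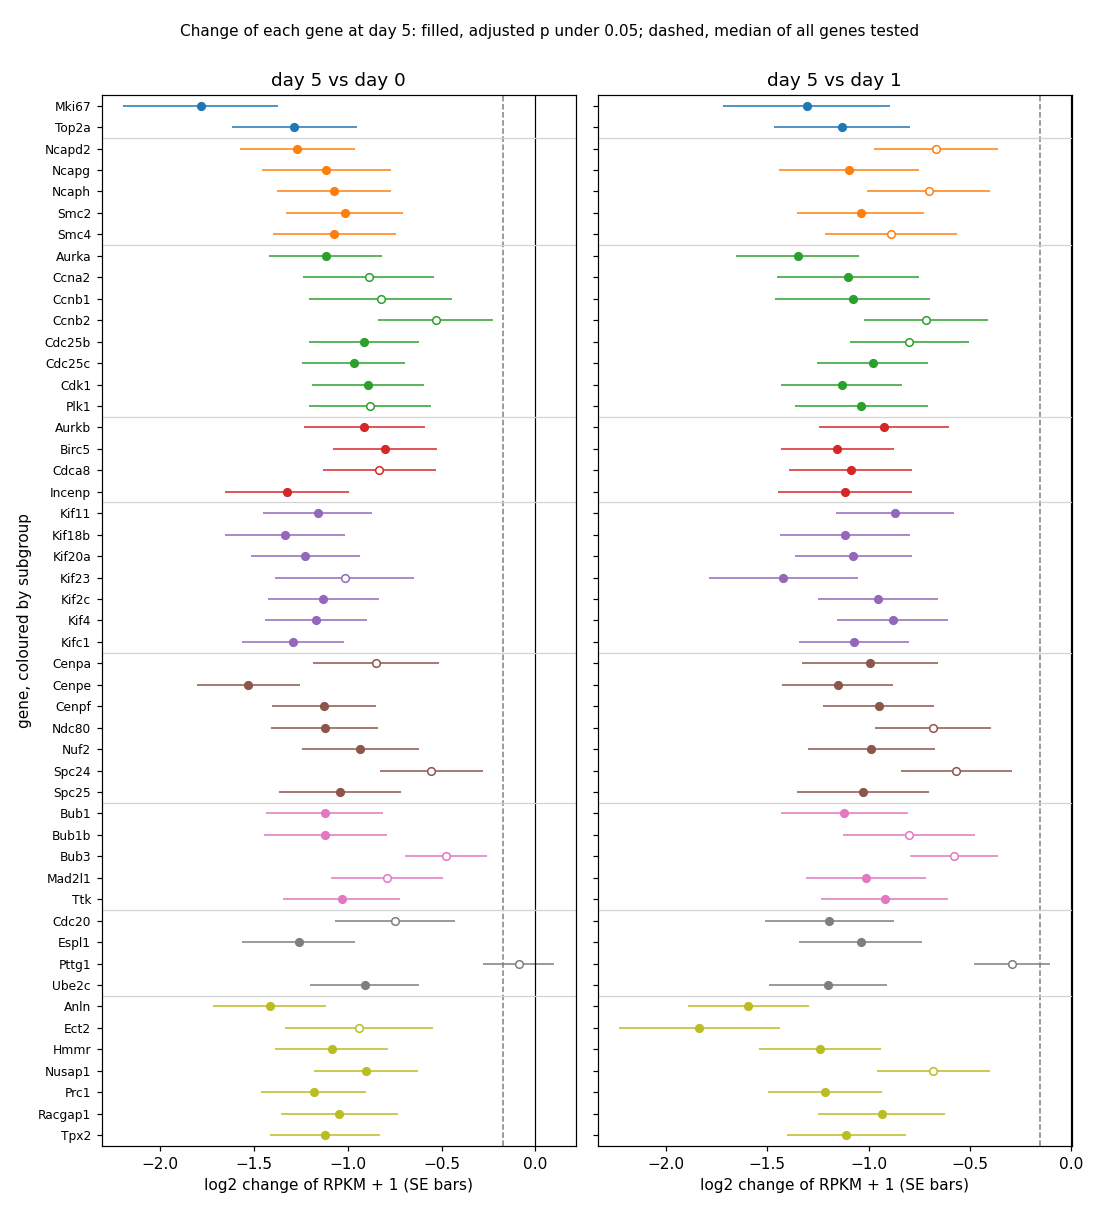
Change of each of the 49 genes on the log2(RPKM + 1) scale from day 0 to day 5 (left) and from day 1 to day 5 (right), with standard errors. Filled points are genes with a limma adjusted p under 0.05 (36 and 38), and the dashed line is the median of all genes tested (-0.17 and -0.15).

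The 7 spindle-binding and cytokinesis genes bind and bundle microtubules or build the furrow that splits the cell, and 6 fell in each comparison. Nusap1 did not pass from day 1 and Ect2 did not pass from day 0. Anln (chr9:22331214-22389211), which encodes anillin, the scaffold of the contractile ring, was at 20.1, 13.1 and 13.6 RPKM at day 0, 21.7, 16.6 and 14.7 at day 1, 16.02, 11.01 and 15.6 at day 2, 9.24, 11.3 and 12.5 at day 3, 3.48, 7.55 and 11.99 at day 4 and 4.14, 5.76 and 5.56 at day 5. Day 5 values were all at or under 5.76 and those of days 0 to 3 all at or over 9.24. It changed by -1.42 ± 0.30 (SE, limma adjusted p = 0.00601) from day 0 and by -1.59 ± 0.30 (SE, limma adjusted p = 0.00314) from day 1, both kept in all 29 alternatives. Ect2 (chr3:27097222-27154253) encodes the exchange factor that activates RhoA at the division site. It was at 26.1, 17.1 and 18.4 RPKM at day 0, 61.1, 30.9 and 29.8 at day 1, 39.3, 16.9 and 38.9 at day 2, 17.4, 21.8 and 23.9 at day 3, 7.32, 12.6 and 27.01 at day 4 and 9.61, 11.2 and 9.36 at day 5. Day 1 replicate 1 stood far above the rest, the other libraries of day 1 were also above all of day 0, and the day 5 values were all at or below 11.2. The mean at day 1 was 1.98 times that at day 0, the highest ratio of the 49 genes, and that step was not called (log2 change of 0.89 ± 0.40 (SE), limma adjusted p = 0.132). From day 1 it changed by -1.83 ± 0.40 (SE, limma adjusted p = 0.00613), kept in all 29 alternatives, and from day 0 by -0.94 ± 0.40 (SE, limma adjusted p = 0.0892). Racgap1 (chr15:99620496-99651656), the partner of Ect2 at the central spindle, was at 40.4, 29.2 and 33.4 RPKM at day 0, 40.4, 28.9 and 26.6 at day 1, 36.95, 22.7 and 34.3 at day 2, 22.6, 26.97 and 28.1 at day 3, 10.1, 17.3 and 34.7 at day 4 and 15.7, 15.2 and 17.2 at day 5. Its day 5 values lay below all of days 0 to 3. It fell by 1.04 ± 0.31 on the log2 scale (SE, limma adjusted p = 0.0266) from day 0, lost without day 0 replicate 1 or 3 or day 5 replicate 1 or 2, and by 0.93 ± 0.31 on the log2 scale (SE, limma adjusted p = 0.0385) from day 1, lost without day 1 replicate 1 or 2 or any library of day 5.

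The last group holds Cdc20 and Ube2c, which work with the anaphase-promoting complex, securin (Pttg1) and separase (Espl1), the protease that cuts the links between sister chromatids. From day 0, 2 of the 4 fell (Ube2c and Espl1), and from day 1, 3 fell (Cdc20, Ube2c and Espl1). Ube2c (chr2:164769929-164772902), the most abundant of the 49, was at 112, 115 and 142 RPKM at day 0, 179, 152 and 124 at day 1, 171, 107 and 164 at day 2, 118, 138 and 125 at day 3, 46.9, 93.9 and 138 at day 4 and 67.2, 62.4 and 64.8 at day 5. Day 5 values were close to each other and below all of days 0 to 3. It changed by -1.20 ± 0.29 (SE, limma adjusted p = 0.00976) from day 1, kept in all 29 alternatives, and by -0.91 ± 0.29 (SE, limma adjusted p = 0.0337) from day 0, lost without any library of day 0 or day 5. Bases that overlap exons of the gene Tnnc2, on either strand, make up 22.8% of the exon bases of Ube2c, and the use of strand is not stated. Pttg1 (chr11:43420244-43427463) was at 6.63, 3.698 and 5.16 RPKM at day 0, 5.99, 5.64 and 6.28 at day 1, 7.16, 4.98 and 5.37 at day 2, 4.84, 5.93 and 6.26 at day 3, 3.47, 4.57 and 5.81 at day 4 and 5.02, 4.24 and 4.83 at day 5. Its values overlapped at all 6 days, except that those of day 1 all lay above those of day 5. It changed by -0.09 ± 0.19 (SE, limma adjusted p = 0.732) from day 0 and by -0.29 ± 0.19 (SE, limma adjusted p = 0.243) from day 1.

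A set of 29 genes was called in both comparisons and 4 in neither (Bub3, Ccnb2, Pttg1 and Spc24). Both comparisons use the same libraries of day 5, and the shares of all genes were not counted for these joint calls. The 7 called from day 0 alone were Bub1b, Cdc25b, Ncapd2, Ncaph, Ndc80, Nusap1 and Smc4, and the 9 called from day 1 alone were Ccna2, Ccnb1, Cdc20, Cdca8, Cenpa, Ect2, Kif23, Mad2l1 and Plk1. The difference between these comparisons is the step from day 0 to day 1, in which none of these genes was called, so they were not shown to differ between the comparisons. Pttg1, Ccnb2, Spc24, Cdca8 and Kif23 were picked for description after their values were seen. As a description, the median ratio of day 1 to day 0 was 0.810 for Mki67 and Top2a, 0.858 for kinesins and 0.897 for condensin, and 1.16 for the cyclin and kinase group, 1.11 for the passenger complex and 1.19 for the anaphase group. It was 1.02 for the spindle checkpoint, 0.983 for the centromere and kinetochore and 1.03 for the spindle-binding and cytokinesis group. The ranges of Mki67 and Top2a (0.714 to 0.906) and of the cyclin and kinase group (0.924 to 1.24) did not overlap, and the differences between groups were not tested.

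The summed level of the 49 genes had its widest range at day 4. It was 476.4, 887.2 and 1528 RPKM in replicates 1, 2 and 3. In 49 of 49 genes replicate 1 was the lowest, replicate 2 between and replicate 3 the highest, an order found in 52.3% of all genes tested. Replicate 3 was at least 2 times replicate 1 in 47 genes, against 24.4% of all genes, and the fold ran from 1.67 (Pttg1) to 4.38 (Kif23) with a median of 3.34, against 1.33 over all genes. Replicate 1 of day 4 was the lowest of all 18 libraries for 47 genes, against 28.6% of all genes, and below all 3 values of day 5 for 47, against 45.7%. Replicate 3 was above all 3 values of day 5 in 49 genes, against 51% of all genes, and lay within the range of days 0 to 3 in 48. From day 3 to day 4, 0, 1 and 40 of the 49 genes were higher in replicates 1, 2 and 3, and from day 4 to day 5, 47, 0 and 0. The shares of all genes were not counted for these steps by replicate, nor for the range of days 0 to 3.

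Markers of differentiated enterocytes moved the other way between the libraries of day 4. The summed level of the 4 markers in the list, Alpi, Fabp1, Apoa1 and Sis, was 16930, 8532 and 2517 RPKM in replicates 1, 2 and 3. It was 481.2 to 580.3 RPKM at day 0, 1737 to 4348 at day 1, 1671 to 7434 at day 2, 1664 to 6879 at day 3 and 11100 to 14020 at day 5. Fabp1 made up most of the sum at day 5, at 8047 to 10050 RPKM. All 4 markers were higher at day 5 than at day 0, by differing courses. Sis was at 65.6 to 119.3 RPKM at day 0 and 33.6 to 99.5 at day 1. Alpi at day 5 (404.3 to 646.4) lay within its range of day 1 (364.3 to 706.8). At days 2 and 3 the highest sums were those of day 2 replicate 2 and day 3 replicate 1, which also had the lowest summed level of the 49 genes of their day (1062 and 1043 RPKM). The 4 stem cell markers Lgr5, Ascl2, Olfm4 and Smoc2 summed to 154.1 to 252.0 RPKM at day 0, 15.5 to 49.9 at day 1, 14.8 to 90.3 at day 2, 69.0 to 101.7 at day 3, 207.2 to 284.9 at day 4 and 398.9 to 625.3 at day 5. Olfm4 made up most of the sum at day 5, at 355.4 to 576.6 RPKM, against 106.3 to 139.8 at day 0. The other 3 had other patterns: Ascl2 was at 0.294 to 4.40 RPKM at day 0, 8.88 to 11.3 at day 1 and 4.08 to 4.93 at day 5, and the ranges of days 0 and 5 overlapped for Lgr5 (1.33 to 32.05 and 4.15 to 5.85) and Smoc2 (27.1 to 85.4 and 34.0 to 39.7). The part of the cell types in the change of the 49 genes was not tested.

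**Figure D5:**
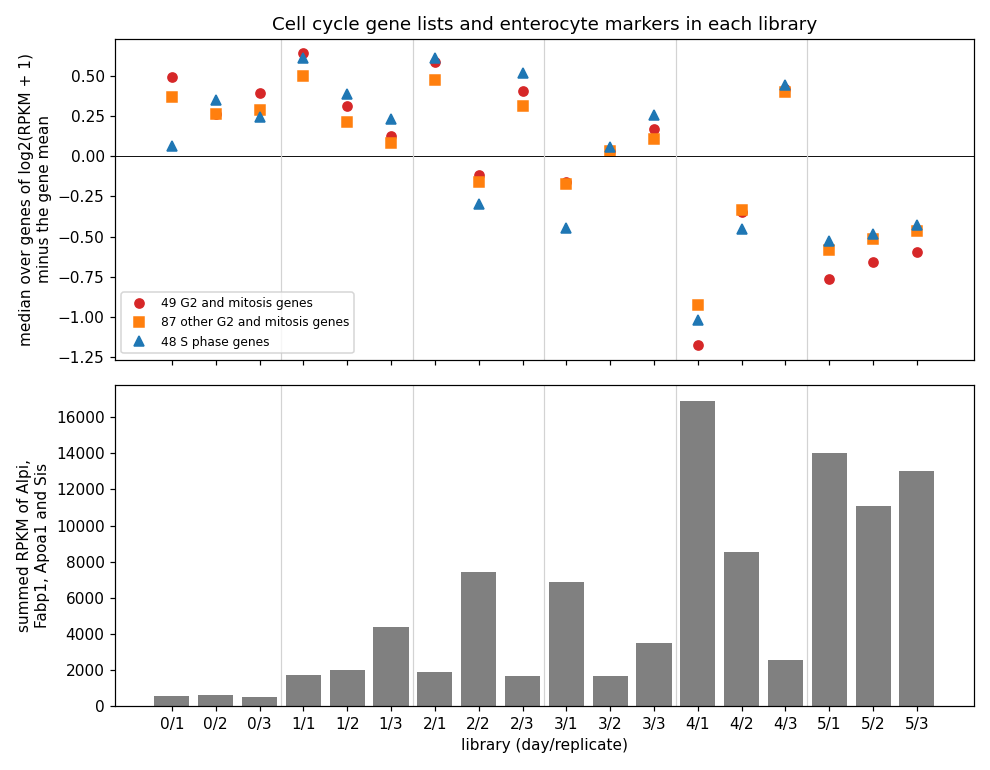
Upper panel: median over genes of log2(RPKM + 1) minus the gene mean, in each library, for the 49 genes, 87 other G2 and mitosis genes and 48 S phase genes. Lower panel: summed RPKM of 4 enterocyte markers, with day 4 stepping from 16930 in replicate 1 to 2517 in replicate 3 while the gene lists step up.

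Other cell cycle genes put the 49 in context. Of 87 further genes of G2 and mitosis, all tested, 47 fell from day 0 and 49 from day 1, where 13% and 16.1% of all genes tested fell. In both comparisons 0 rose, against 11.4% and 11.8% of all genes. The median changes were -0.84 and -0.81, against -0.17 and -0.15 over all genes. Without 1 library the counts ran from 9 (day 5 replicate 1) to 64 (day 4 replicate 3) and from 5 (day 1 replicate 1) to 65 (day 4 replicate 3), respectively. Leaving out day 0 replicate 1, 2 or 3 gave 26, 21 or 23 in the first, and day 5 replicate 2 or 3 gave 22 or 28. Leaving out day 1 replicate 2 gave 20 in the second, and day 5 replicate 1, 2 or 3 gave 8, 20 or 24. Foxm1, a transcription factor that activates G2 and mitosis genes, was at 22.5, 20.0 and 22.4 RPKM at day 0 and 6.32, 8.45 and 10.3 at day 5, with no overlap. It changed by -1.29 ± 0.34 (SE, limma adjusted p = 0.0158) from day 0 and by -1.11 ± 0.34 (0.0265) from day 1. The first call was lost without day 5 replicate 1. The second was lost without replicate 1 or 2 of day 1 or of day 5, and in the DNase-treated libraries alone. Mybl2, the B-MYB of the complex that binds the cell cycle homology region, was at 9.46, 8.52 and 8.66 RPKM at day 0, 14.2, 13.2 and 9.90 at day 1 and 3.31, 3.99 and 4.87 at day 5. Its change of -1.41 from day 1 was called (limma adjusted p = 0.017), and that of -0.98 from day 0 was not (0.0732). The call was lost without day 1 replicate 1 or 2 or day 5 replicate 1, and in the DNase-treated libraries alone. In the step from day 0 to day 1, 1 of the 87 was called, where 9.54% of all genes tested rose and 9.05% fell. It was Hjurp, the chaperone that loads Cenpa, which fell by 1.20 on the log2 scale (limma adjusted p = 0.00332), a call kept in all 29 alternatives.

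Of 48 S phase genes, all tested, 11 fell from day 0 and 24 from day 1, where 13% and 16.1% of all genes tested fell. In both comparisons 0 rose, against 11.4% and 11.8% of all genes. The median changes were -0.71 and -0.90, against -0.17 and -0.15 over all genes. Without 1 library the first count ran from 1 (day 0 replicate 2 or 3, day 5 replicate 1 or 2) to 25 (day 4 replicate 3). It was 3 to 7 without day 0 replicate 1, day 1 replicate 2 or 3, day 3 replicate 3, day 4 replicate 2 or day 5 replicate 3, and 19 without day 4 replicate 1. The second ran from 2 (day 1 replicate 1) to 37 (day 4 replicate 3) and was 3 to 14 without day 1 replicate 2 or 3 or any library of day 5. Rrm2, a subunit of the enzyme that makes deoxynucleotides, changed by -1.59 from day 0 (limma adjusted p = 0.00615) and by -2.20 from day 1 (0.00077), both kept in all 29 alternatives. Another list held 17 genes, namely G1 cyclins, CDK inhibitors, pocket proteins, Cdk4, Cdk6, E2f7 and E2f8, and 16 were tested. From day 0 to day 1 2 rose (Ccnd1 and Ccnd3) and 2 fell (Cdkn1b and Cdkn2d), where 9.54% of all genes rose and 9.05% fell. Ccnd1, a D-type cyclin that starts passage through G1, rose by 2.42 (limma adjusted p = 0.018), a call lost without day 0 replicate 1 or 2 or day 1 replicate 3 and in the DNase-treated libraries alone. The call of Ccnd3 (limma adjusted p = 0.03) was kept in 23 of 29 alternatives. It was lost without day 0 replicate 1 or 3 or day 1 replicate 1 or 2, in the DNase-treated libraries and with the 2 days alone. That of Cdkn2d (0.0451) was kept in 11 of 29. It was lost without any library of day 1 or day 5, day 0 replicate 1 or 3, day 2 replicate 1 or 3, day 3 replicate 2 or day 4 replicate 2. The Cdkn2d call was also lost without a filter, with the stricter filter, with mouse as a factor and with quantile normalization. The DNase-treated libraries and the 2 days alone lost it too. Cdkn1b, an inhibitor of cyclin-dependent kinases, fell by 1.02 (limma adjusted p = 0.0111), a call lost without day 1 replicate 3. At day 5 against day 0, Cdkn2b, an inhibitor of the G1 kinases, rose by 3.50 (limma adjusted p = 0.00035), a call kept in all 29 alternatives, and 4 genes fell, namely E2f7, E2f8, Cdkn2c and Rbl1. From day 1 to day 5, 4 rose (Cdkn2b, Cdkn1c, Rb1 and Rbl2) and Ccnd3 fell. Of all genes tested, 11.4% rose and 13% fell from day 0, and 11.8% rose and 16.1% fell from day 1. Without 1 library the counts of 5 calls in this list were as low as 2 (day 0 replicate 2, day 5 replicate 1 or 2 for day 0, and day 1 replicate 1 or 2, day 5 replicate 1 or 3 for day 1) and at most 8 (day 4 replicate 3). They were 3 without day 0 replicate 3 for the first, and without day 1 replicate 3 or day 5 replicate 2 for the second. The genes named from these lists were picked after their values were seen. Differences between these lists and the 49 genes were not tested.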

How the data were processed

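RNA-seq was made from 18 libraries, 3 at each of 6 days, grouped by the day in the labels. The deposited values are RPKM made by the authors. Tools listed without roles in the submitters' processing notes are STAR 2.5.2b, edgeR 3.20.5 and bcl2fastq 2.17, and the build is mm10. For the annotation, the use of strand and reads matching several genes, the sources used here give nothing. Nothing says whether the wells pooled for a library came from separate cultures, so p-values measure the spread between these libraries.

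The test used log2(RPKM + 1) of the 11111 genes that reached 1 RPKM in 3 or more libraries. It was limma's (version 3.58.1, R 4.3.3), lmFit and eBayes with a trend, 1 coefficient per day over all libraries, two-sided, Benjamini-Hochberg adjusted over all genes. Changes on this scale understate those of low genes. The code was checked on simulated data. Depth was inferred from values that are whole multiples of 1 read, from 154 to 206 genes per library that agreed within a relative 2e-05. No 2 libraries held identical values, and the highest correlation was 0.995. Coordinates and promoters are from RefSeq, GRCm38.p6 (mm10), in which 24061 genes matched. Exon overlaps used GENCODE, and near-identical transcripts BLAST 2.17.0 with at least 95% identity over 300 bases.

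The 49 genes, their subgroups and the other lists were chosen with earlier results of these data known. Detail was given for Mki67, Ccnb1 and Cdk1, for the most abundant gene and the gene with the smallest p over days of each subgroup, and for the 3 called genes with the smallest adjusted p of each comparison. Alternatives were another pseudocount, other filters, a replicate block, mouse as a factor, 2 rescalings, array weights, subsets of libraries and leaving out each library. The titles tie libraries of the same number to 1 mouse, except replicate 2 at days 1 and 2. Deviations from the day means of same-numbered libraries correlated at -0.04 to 0.31 between days 0 and 5 and at -0.14 to 0.34 between days 1 and 5. With the replicate block, 38 of the 49 genes passed from day 0, adding Cdca8 (limma adjusted p = 0.0449) and Kif23 (0.0412), and 39 from day 1, adding Cdc25b (0.0438). The value of 1 immune marker by itself is not reported here.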

Additional observations from a re-analysis of the deposited data

Results flagged for a closer look

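The step from day 4 to day 5 went up in replicate 1 and down in replicates 2 and 3 for nearly all of the 49 genes. In replicate 1 (mouse 1, no DNase), 47 of the 49 genes had a higher value at day 5 than at day 4. In replicate 2 (mouse 2) and in replicate 3 (mouse 3), both DNase-treated, 0 were higher. The shares of all genes were not counted for these steps by replicate. Another measure sets 1 library of day 4 beside all 3 of day 5. Day 4 replicate 1 lay below all 3 in 47 of the 49 genes, against 45.7% of all genes tested. Day 4 replicate 3 lay above all 3 in 49, against 51%. By this measure, shifts of day 4 were not confined to the 49 genes. The difference between the replicates was not tested, since each has 1 library per day. At these days mouse and DNase treatment cannot be told apart for replicate 1.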

How the results depend on the processing

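Every listed setting was run. The 49 genes that passed from day 0 to day 5 numbered 7 to 45 when 1 library was left out, from day 1 to day 5 8 to 47, and over all days 4 to 47, and no gene was called higher at day 5. From day 1 to day 5 there were 25 without a filter and 15 in the DNase-treated libraries alone. Over all days there were 8 without a filter, 3 in the DNase-treated libraries, 49 with array weights and 46 without day 4, and leaving out day 4 replicates 1 and 3 together added 22 genes to the 23. With array weights, which gave day 4 replicates 1, 2 and 3 the weights 0.436, 8.56 and 0.246, 34 genes passed as lower from day 3 to day 4, 6 as lower from day 4 to day 5 and 2 from day 0 to day 1, where quantile normalization and the 2 days alone each gave 1. The remaining counts stayed within 1.5 times, and the calls of Cenpe, Kifc1, Anln, Ect2 and Aurka in the comparison each was named for were kept, except that Kifc1 over all days missed the threshold in the DNase-treated libraries (limma adjusted p = 0.0846). With the replicate block the count over all days was 25, and the block changed the calls from day 0 and day 1 to day 5 by adding 2 genes and 1. Among genes described in detail, calls from day 0 were lost without a filter for Cdk1, Ube2c and Aurkb. In the DNase-treated libraries they were lost for Cdk1, Racgap1, Smc4 and Aurkb. Calls from day 1 were lost in both settings for Ccna2, Ccnb1, Cenpa, Kif11, Mki67, Racgap1 and Aurkb. Those of Bub1, Incenp and Top2a were lost in the DNase-treated libraries. Ccnb1 was also lost with mouse as a factor and either rescaling, and Aurkb from day 0 with the other pseudocount and the stricter filter. The cause of these changes was not tested.

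For the 87 other G2 and mitosis genes, calls from day 0 numbered 9 to 64 without 1 library, 79 with array weights, 21 in the DNase-treated libraries and 71 with the 2 days alone, and from day 1 5 to 65, 75 with array weights, 14 in the DNase-treated libraries and 28 without a filter. For the 48 S phase genes, calls from day 0 numbered 1 to 25 without 1 library, 3 without a filter, 17 with quantile normalization, 46 with array weights, 2 in the DNase-treated libraries, 40 with the 2 days alone and 27 without day 4. From day 1 they numbered 2 to 37 without 1 library, 11 without a filter, 37 with mouse as a factor, 40 with array weights, 2 in the DNase-treated libraries, 40 with the 2 days alone and 37 without day 4. For the G1 list, calls from day 0 numbered 2 to 6 without 1 library, 13 with array weights, 3 in the DNase-treated libraries and 8 with the 2 days alone, and from day 1 2 to 8, 8 with array weights, 2 in the DNase-treated libraries, 9 with the 2 days alone and 8 without day 4. Runs of these lists and those without day 4 were chosen after seeing the data. Every value of the 49 genes stood for about 357 reads or more.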
